A study of Mus musculus with 12 samples.

Results

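The early response of the mouse colon to DSS (dextran sulfate sodium), which injures the colonic lining when mice drink it in water, was read by comparing day 2 of the exposure with day 0. The comparison used 6 of the 12 RNA-sequencing libraries of the series, 3 from day 0 and 3 from day 2, chosen by the labelled day of harvest alone. It covered 15246 of the 25904 listed genes, namely those that reached 1 CPM (counts scaled to the same total in each library) in at least 3 of the 12 libraries. Libraries of days 4 and 6 entered only through the shared estimate of spread and, where they bear on a day 2 gene, as levels given beside it. Per the labels, the animals were 7 weeks of age and free of specific pathogens, the course was 6 days of 3% DSS or clean water, and the tissue was mid-colon. The labels name no strain, genotype, sex, feeding or hour of harvest. All libraries carry the DSS name and none is labelled as water-fed at day 2, so an effect of DSS and an effect of the day of harvest or of age cannot be told apart. Whether replicates are separate animals is not stated, so the p-values measure the spread between these libraries, which may be technical. In bulk tissue of this kind, fewer cells of a type and less RNA per cell cannot be told apart.

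Cells build cholesterol from acetyl-CoA by way of mevalonate and squalene. The genes of this route are switched on by SREBP transcription factors, which INSIG proteins hold back in the endoplasmic reticulum while sterols are plentiful. Glucocorticoids, released by the adrenal gland and also made by the gut epithelium, act through a nuclear receptor on genes such as Fkbp5 and Zbtb16. The daily clock runs on a loop in which ARNTL, paired with CLOCK or NPAS2, drives genes with E-box sequences, among them the Per and Cry genes and Ciart, whose products restrain it in turn.

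The 6 libraries held 31935956 to 39658220 reads in listed genes, and 1 read was worth 0.0251 to 0.0311 CPM. Across genes, libraries correlated at 0.966 to 0.984 within day 0, 0.985 to 0.988 within day 2 and 0.951 to 0.98 between the days. Colonocyte markers scored alike in all 6 (means of log2(CPM + 1) of 9.44 to 9.75 over 18 genes). Skeletal muscle is no part of the colon wall, and its markers were unevenly present in day 0. Their summed level was 72.8, 198.8 and 30.0 CPM in the day 0 libraries and 47.5, 26.7 and 25.7 CPM at day 2, with 14 of 15 genes tested and none past the threshold by limma (1 was lower at p under 0.05 before adjustment; 0 by edgeR, 4 lower by DESeq2). The summed level of 6 posterior Hox genes, 3 of which were tested, ran from 27.8 to 195.6 CPM over the 6 libraries. A list of exocrine pancreas genes was separated between the days, at 116.3 to 214.3 CPM against 57.0 to 96.6 CPM, with 3 of its 12 genes tested. Amy2b, the pancreatic amylase, had 0 reads on both days. The part of these differences in the results below was not tested.

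Day 2 differed from day 0 in a small number of genes. The test (limma on log2(CPM + 1) over the 12 libraries, with Benjamini-Hochberg adjustment) called 49 of 15246 genes at an adjusted p under 0.05, a share of 0.321%. Of these, 18 were higher at day 2 (0.118%) and 31 lower (0.203%), 15 and 27 of them by more than 2-fold. The 49 were 44 named protein-coding genes, 4 immunoglobulin segments and 1 transcript known by a clone name. The lower genes were led by enzymes of sterol synthesis and the higher ones held targets of glucocorticoids, the clock gene Arntl and the efflux pump gene Abcb1a. In none of the 44 did the 3 libraries of day 2 overlap those of day 0, a separation seen in 18.7% of all genes upward and in 12% downward. Over all genes tested the median difference (log2) was 0.043.

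How many genes passed depended on the libraries that set the spread. The median SD of a gene within a day was 0.209 on the log2 scale at day 0, 0.144 at day 2, 0.15 at day 4 and 0.319 at day 6. A fit of the 6 libraries alone called 382 genes (2.51%), 171 higher (1.12%) and 211 lower (1.38%), and these contained all 49. On recovered reads, edgeR called 35 genes (0.23%), 0.0853% higher and 0.144% lower, and DESeq2 546 of 14934 (3.66%), 1.27% higher and 2.39% lower, sharing 32 and 49 with the 49. With day 6 replicate 2 left out, 206 higher and 351 lower genes passed, and with day 6 replicate 3 left out, 36 and 49. Leaving out a library of the compared days cut the calls. Day 0 replicates 1, 2 and 3 left 10, 4 and 5 higher genes with 22, 10 and 12 lower ones, and day 2 replicates 1, 2 and 3 left 10, 4 and 7 with 10, 9 and 14. The lower genes were 20 without day 4 replicate 1 and 18 without day 4 replicate 3. No named gene changed direction in any of these fits, and 9 (Lss, Mvd, Acat2, Fdft1, Insig1, Arntl, Zbtb16, Kbtbd11 and Kif27) passed in all 12 fits without 1 library.

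**Figure D1:**
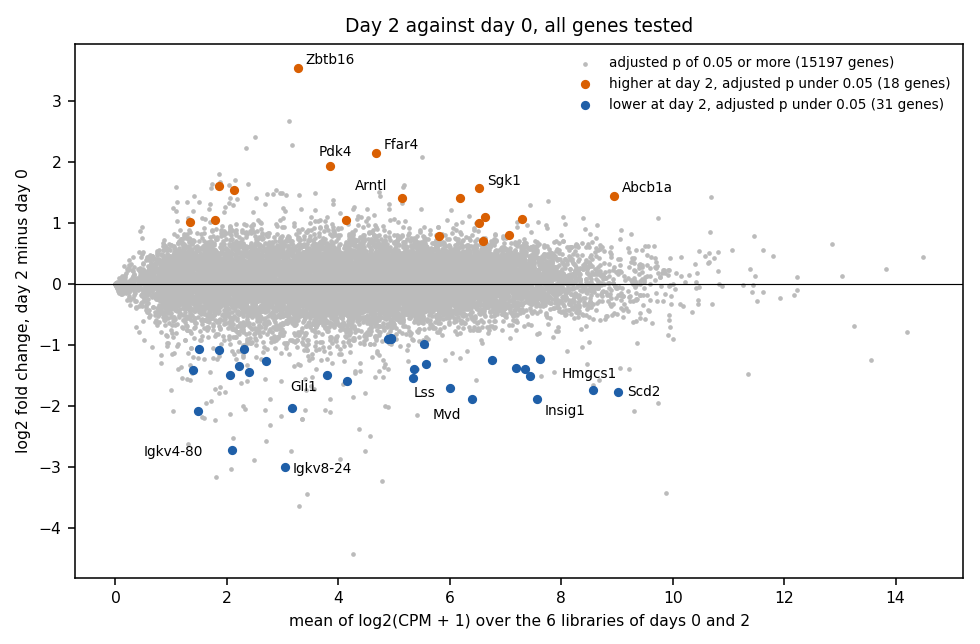
Each point is 1 of the 15246 genes tested, placed by its mean log2(CPM + 1) over the 6 libraries of days 0 and 2 (horizontal) and by its log2 fold change, day 2 minus day 0 (vertical). The 18 higher and 31 lower genes past an adjusted p of 0.05 are coloured; Zbtb16 has the largest rise, and Hmgcs1, Scd2, Insig1, Mvd and Lss lie on the lower side.

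Of 21 enzymes of sterol synthesis, 12 fell at day 2 and none rose (0.203% of all genes were called lower). The gene lists here and below were chosen with earlier results of these data known. Their counts beside those of all genes are therefore a description and not a test. All 21 had a lower value in every day 2 library than in any day 0 library, a separation seen in 12% of all genes. Their median log2 fold change was -1.22 against 0.043 for all genes. Summed over the 21, the level went from 3961, 3647 and 3615 CPM at day 0 to 1566, 1586 and 1771 CPM at day 2. The fit of the 6 libraries called 16 of them, edgeR 10 and DESeq2 17. The count rested on the compared libraries, at 6, 4 and 6 without day 0 replicates 1, 2 and 3, and 5, 5 and 7 without day 2 replicates 1, 2 and 3. It was 18 without day 6 replicate 2.

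In the first stretch of the pathway, from acetyl-CoA to squalene, 8 of 9 enzymes fell, with a list median of -1.39. Acat2, which joins acetyl-CoA units (chr17:12942890-12960747, minus strand, GRCm38), stood at 77.9, 61.8 and 65.1 CPM at day 0 and 22.8, 19.9 and 25.7 CPM at day 2, a log2 difference of -1.54 (SE 0.17, adjusted p = 0.00404). Hmgcs1, the HMG-CoA synthase (chr13:119690379-119708260, plus strand), stood at 652, 744 and 685 CPM at day 0 and 162, 213 and 261 CPM at day 2, a difference of -1.73 (SE 0.22, adjusted p = 0.00664). In both, the day 2 libraries lay far under all day 0 libraries, and those of Hmgcs1 were uneven, with replicate 3 highest.

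The kinases and the decarboxylase of mevalonate followed. Mvk, mevalonate kinase (chr5:114444269-114460591, plus strand), was at 81.6, 58.6 and 57.8 CPM at day 0 and 25.9, 21.7 and 25.1 CPM at day 2, a difference of -1.40 (SE 0.20, adjusted p = 0.0148). Pmvk, which adds the second phosphate, had libraries close together within each day, at 41.0, 39.8 and 37.9 CPM at day 0 and 20.7, 20.7 and 21.3 CPM at day 2, and differed by -0.89 (SE 0.12, adjusted p = 0.00977). Mvd, which makes isopentenyl diphosphate (chr8:122433601-122443422, minus strand), went from 205, 139 and 147 CPM to 44.4, 39.5 and 44.8 CPM. Its log2 difference of -1.89 (SE 0.18, adjusted p = 0.00233) was the deepest of the 21. The isomerase Idi1 and the farnesyl diphosphate synthase Fdps fell by 1.31 and 1.24 on the log2 scale (SE 0.23 and 0.20, adjusted p = 0.0418 and 0.0299). Fdft1, squalene synthase, stood at 294, 245 and 257 CPM at day 0 and 99.6, 95.8 and 106 CPM at day 2, a difference of -1.39 (SE 0.17, adjusted p = 0.00664). It shares 774 exon bases, 18.3% of its own, with Ctsb on the other strand, and the strand setting of the counting is not given, so its level may hold reads of Ctsb.

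In the second stretch, from squalene to cholesterol, 4 of 12 enzymes fell (Sqle, Lss, Msmo1 and Nsdhl), with a median of -0.90. Lss, which closes the rings to lanosterol (chr10:76531588-76557138, plus strand), stood at 114, 118 and 112 CPM at day 0 and 31.0, 33.4 and 40.5 CPM at day 2. Its difference of -1.69 (SE 0.12, adjusted p = 0.000213) had the smallest adjusted p of all genes. Sqle, the epoxidase before it, stood at 324, 308 and 271 CPM at day 0 and 125, 116 and 147 CPM at day 2, a difference of -1.22 (SE 0.19, adjusted p = 0.0202). The demethylase Msmo1 was at 357, 265 and 262 CPM at day 0 and 95.4, 94.7 and 117 CPM at day 2, a difference of -1.51 (SE 0.22, adjusted p = 0.0156). Nsdhl, a decarboxylating dehydrogenase of the same branch on the X chromosome, fell by 0.98 (SE 0.17, adjusted p = 0.0428). Lss shares 381 exon bases, 3.5% of its own, with the unnamed transcript 4930483K19Rik on the other strand, which was itself called lower.

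No other enzyme of this stretch passed. Cyp51, the lanosterol demethylase, stood at 323, 279 and 286 CPM at day 0 and 127, 127 and 137 CPM at day 2 and came close, at -1.17 (SE 0.22, adjusted p = 0.0585). Hsd17b7, Tm7sf2 and Sc5d differed by -0.99, -0.82 and -0.74 (adjusted p = 0.114, 0.134 and 0.138). The isomerase Ebp and the reductases Dhcr7 and Lbr differed by -0.47, -0.49 and -0.31 (adjusted p = 0.352, 0.345 and 0.42). Whether the enzymes of the 2 stretches differ in their change was not tested.

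**Figure D2:**
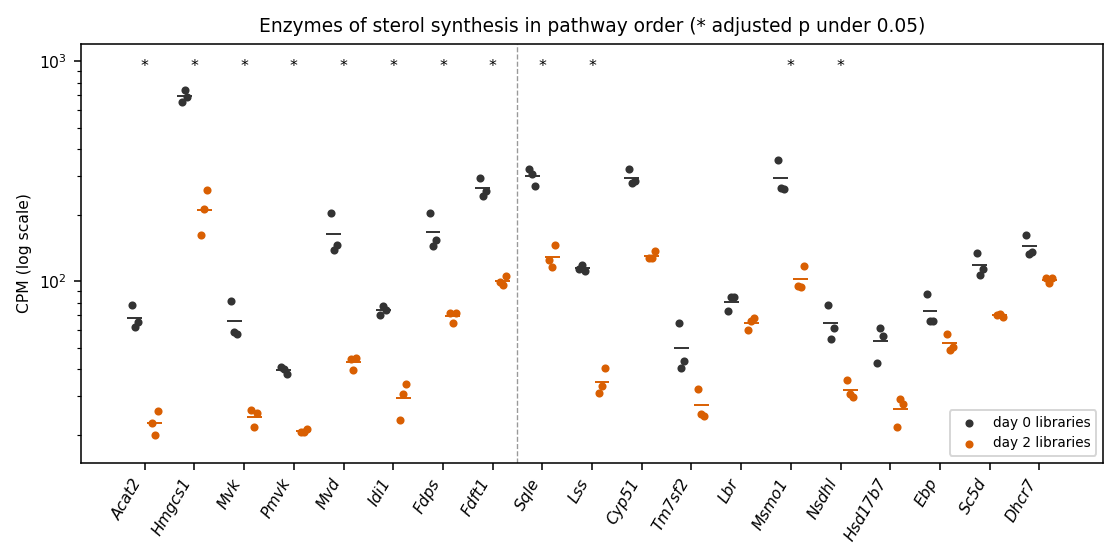
CPM on a log axis for the enzymes of sterol synthesis named in the text, in pathway order, with the 3 day 0 libraries in dark grey, the 3 day 2 libraries in orange and a bar at each mean. The dashed line parts the enzymes up to squalene from those after it, a star marks an adjusted p under 0.05 (12 enzymes), and no enzyme shown has overlapping days.

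Among 7 genes that sense sterols and activate SREBP, Insig1 was the 1 that fell (0.203% of all genes were called lower). Insig1, itself a target of SREBP that holds it back (chr5:28071363-28078662, plus strand), stood at 383, 281 and 439 CPM at day 0 and 92.2, 98.2 and 101 CPM at day 2, a difference of -1.89 (SE 0.24, adjusted p = 0.00664). The 3 day 2 libraries sat close together, while those of day 0 ranged widely. The transcription factor Srebf2, the chaperone Scap and the proteases Mbtps1 and Mbtps2 differed by -0.05, 0.07, 0.04 and 0.16, none past the threshold (adjusted p of at least 0.615). Insig2 differed by 0.16 (adjusted p = 0.422). Srebf1, which favours fatty acid genes, was at 134, 150.0 and 115 CPM at day 0 and 94.2, 88.8 and 91.8 CPM at day 2, a difference of -0.53 (SE 0.14, adjusted p = 0.16).

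None of 10 tested genes of sterol uptake and transport passed by limma in the fit of 12 libraries (3 lower and 1 higher at an unadjusted p under 0.05, 0 by edgeR, 2 lower by DESeq2, 1 lower in the fit of the 6 libraries). Of 10 LXR targets and sterol exporters none passed by limma (2 higher at an unadjusted p under 0.05, 0 by edgeR and DESeq2). The sterol pump subunits Abcg5 and Abcg8 had their 3 day 2 libraries above day 0, at 3.22 to 12.4 against 0.787 to 1.26 CPM and 1.96 to 7.50 against 0.499 to 1.40 CPM, with adjusted p of 0.213 and 0.24.

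Of 17 genes of fatty acid synthesis and desaturation, 2 fell, Scd2 and Aacs (0.203% of all genes were called lower), with a list median of -0.26. Scd2, a desaturase (chr19:44293674-44306864, plus strand), stood at 879, 1394 and 707 CPM at day 0 and 254, 245 and 348 CPM at day 2, a difference of -1.77 (SE 0.27, adjusted p = 0.0202). The highest day 0 library was replicate 2. Aacs, which turns acetoacetate into acetoacetyl-CoA for lipid synthesis, was tight within each day at 223, 238 and 241 CPM at day 0 and 87.4, 90.1 and 90.6 CPM at day 2, a difference of -1.38 (SE 0.22, adjusted p = 0.0273). Acly, which supplies acetyl-CoA, was at 429, 447 and 381 CPM at day 0 and 248, 251 and 256 CPM at day 2 and missed narrowly, at -0.73 (SE 0.14, adjusted p = 0.0531). The fatty acid synthase Fasn and the carboxylase Acaca differed by -0.70 and -0.28 (adjusted p = 0.236 and 0.367).

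Mmab, which makes the active form of cobalamin, fell as well, at 44.1, 39.1 and 40.0 CPM at day 0 and 20.9, 21.4 and 22.3 CPM at day 2, a difference of -0.90 (SE 0.11, adjusted p = 0.00664). It lies head to head with Mvk on chromosome 5, with 208 bases between the annotated genes, and the promoter stretch of Mvk printed below lies between both.

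Promoter windows of 250 bases before to 50 bases after a gene's start, from RefSeq on GRCm38.p6, were searched on both strands for the CCAAT box (CCAAT), an SRE-type sequence (TCACNCCAC), which SREBP is known to bind, and the E-box (CACGTG). Windows were at hand for 16 of the 21 sterol enzymes and for 11731 of the genes tested. CCAAT was found in 15 of the 16, against 41.96% of all genes, the SRE-type sequence in 1 of the 16, that of Hmgcs1, against 1.4%, and CACGTG in 3, against 11.24%. CCAAT was above the share of all genes in the other lists searched as well. It was in 4 of 4 sterol uptake genes, 76.47% of 17 clock genes, 64.29% of 14 fatty acid genes and 62.5% of 16 glucocorticoid targets. A match is a description of these letters and no sign of binding. The stretches just upstream of the starts are shown for Hmgcs1, Mvd, Lss and Mvk, which fell and lie in different parts of the pathway, and for Insig1, the sensor that fell with them. They are chr13:119690191-119690350 (plus strand), chr8:122443423-122443582 (minus), chr10:76531445-76531587 (plus), chr5:114444109-114444268 (plus) and chr5:28071252-28071362 (plus), printed 5′ to 3′ on the gene's strand, with capitals for CCAAT or its complement ATTGG, the SRE-type sequence and CACGTG.
Hmgcs1: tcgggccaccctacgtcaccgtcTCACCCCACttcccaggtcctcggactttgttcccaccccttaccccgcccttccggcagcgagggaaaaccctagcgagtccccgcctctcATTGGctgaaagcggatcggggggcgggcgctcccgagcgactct
Mvd: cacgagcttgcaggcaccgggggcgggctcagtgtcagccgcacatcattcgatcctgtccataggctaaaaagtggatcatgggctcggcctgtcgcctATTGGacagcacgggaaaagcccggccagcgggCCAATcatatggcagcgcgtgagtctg
Lss: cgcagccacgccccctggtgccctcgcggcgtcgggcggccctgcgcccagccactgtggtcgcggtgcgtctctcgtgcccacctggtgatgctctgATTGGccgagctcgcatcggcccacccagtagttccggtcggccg
Mvk: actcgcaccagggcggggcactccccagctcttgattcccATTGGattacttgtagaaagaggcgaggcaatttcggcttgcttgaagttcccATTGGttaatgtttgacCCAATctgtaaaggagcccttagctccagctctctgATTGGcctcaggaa
Insig1: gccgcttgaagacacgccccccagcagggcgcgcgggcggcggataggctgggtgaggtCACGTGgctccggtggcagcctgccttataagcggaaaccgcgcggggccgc

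Within these stretches Mvk held 4 CCAAT boxes and Mvd 2, Hmgcs1 and Lss held 1 each, and that of Insig1 held an E-box and no CCAAT.

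Of 18 glucocorticoid targets, 4 rose at day 2 and none fell (0.118% of all genes were called higher), with a list median of 0.56 against 0.043 for all genes. This list too was chosen with earlier results of these data known. The 4 were Zbtb16, Fkbp5, Sgk1 and Pdk4. Zbtb16, a zinc finger transcription factor (chr9:48654297-48836222, minus strand), had few reads at day 0 and stood at 1.08, 2.30 and 2.31 CPM at day 0 and 28.3, 33.9 and 34.3 CPM at day 2. Its difference of 3.54 (SE 0.43, adjusted p = 0.00664) was the largest rise of any called gene. Fkbp5, a chaperone that dampens the receptor's own signal, stood at 104, 104 and 115 CPM at day 0 and 186, 262 and 237 CPM at day 2, a difference of 1.07 (SE 0.14, adjusted p = 0.00977). Sgk1, a kinase that promotes sodium uptake in the colon, was at 70.8, 50.6 and 39.9 CPM at day 0 and 148, 130.2 and 203 CPM at day 2, a difference of 1.57 (SE 0.25, adjusted p = 0.0296). Pdk4, which restrains pyruvate oxidation, was at 8.20, 5.89 and 5.38 CPM at day 0 and 24.1, 38.9 and 21.7 CPM at day 2, a difference of 1.94 (SE 0.32, adjusted p = 0.0305). In Sgk1 and Pdk4 the day 2 libraries were uneven, with replicate 3 highest in the first and replicate 2 in the second.

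The other 14 targets did not pass, and all of them had a positive difference except Cdkn1a (-0.44, adjusted p = 0.354). Angptl4, an inhibitor of lipoprotein lipase, stood at 1.29, 0.685 and 2.31 CPM at day 0 and 7.47, 6.71 and 4.83 CPM at day 2, a difference of 1.63 (SE 0.30, adjusted p = 0.0518). Per1, which the receptor also induces, was at 38.9, 33.5 and 37.8 CPM at day 0 and 61.6, 58.6 and 79.5 CPM at day 2, a difference of 0.83 (SE 0.29, adjusted p = 0.248). The leucine zipper gene Tsc22d3, which encodes GILZ, overlapped between days, at 60.0, 43.1 and 51.1 CPM at day 0 and 86.6, 58.3 and 78.6 CPM at day 2 (adjusted p = 0.383). The metallothioneins Mt1 and Mt2 differed by 0.16 and 0.78 (adjusted p = 0.851 and 0.369), and Klf9 and Dusp1 by 0.72 and 0.60 (0.315 and 0.297). The fit of the 6 libraries called 7 of the 18, adding Per1, Mt2 and Angptl4. The count of 4 was 2 without day 0 replicate 3, day 2 replicate 1, day 6 replicate 1 or any day 4 library, and 1 without day 0 replicate 2 or either of the replicates 2 and 3 of day 2.

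The receptor gene Nr3c1 was at 87.2, 107 and 119 CPM at day 0 and 111, 144 and 133 CPM at day 2, overlapping between the days (adjusted p = 0.336). Cyp11a1 and Cyp11b1, the first and last enzymes of local glucocorticoid synthesis, had 2 reads each over the 3 day 0 libraries and 0 at day 2, which allows up to 0.027 CPM. Nr5a2, which controls that synthesis in the gut, was at 36.7, 35.3 and 46.2 CPM at day 0 and 48.7, 62.2 and 59.7 CPM at day 2 (adjusted p = 0.443).

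Pdk4 was also the 1 gene past the threshold among 20 tested genes of fasting and fatty acid oxidation (0.118% of all genes were called higher). Their median was 0.35, and 18 of them had a positive difference. Cpt1a, the gate of fatty acid entry into mitochondria, was at 201, 254 and 304 CPM at day 0 and 423, 546 and 448 CPM at day 2, with no overlap and a difference of 0.91 (SE 0.25, adjusted p = 0.165). Slc16a1, the transporter through which colonocytes take up butyrate, was at 235, 247 and 275 CPM at day 0 and 369, 358 and 377 CPM at day 2, a difference of 0.54 (SE 0.14, adjusted p = 0.153). Neither passed, though Cpt1a did in the fit of the 6 libraries (adjusted p = 0.0496). Feeding and body weight are not in the labels, and their part was not tested.

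**Figure D3:**
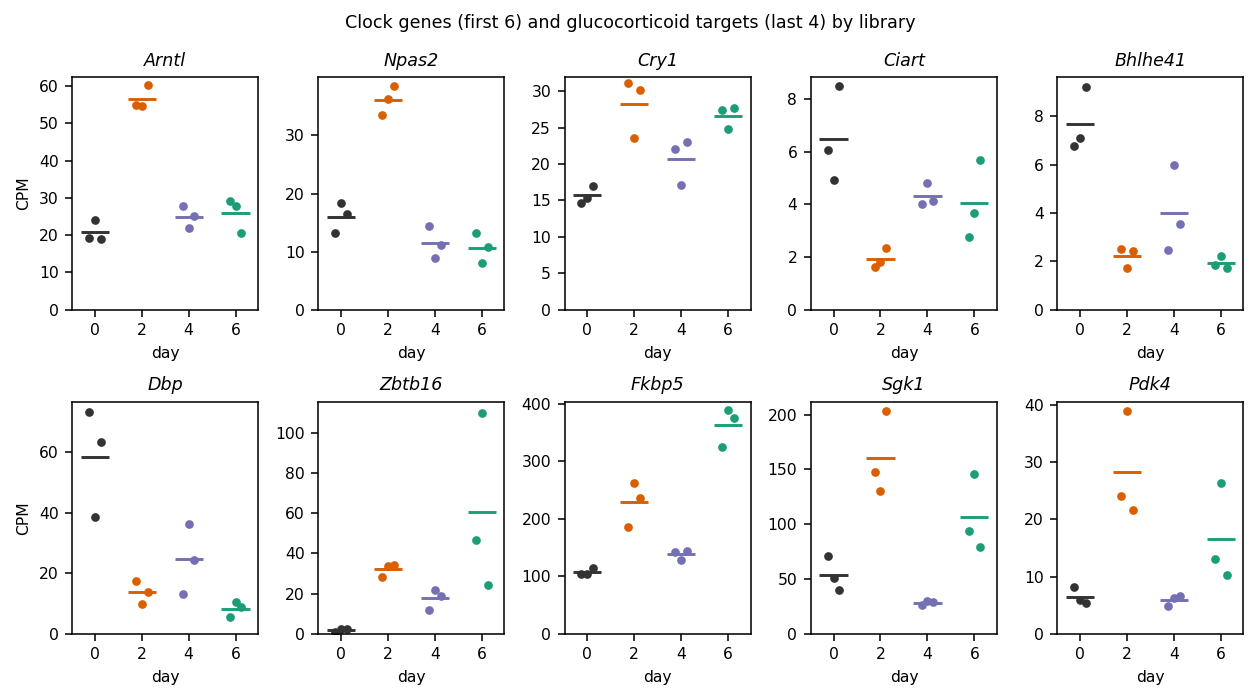
CPM by day (0, 2, 4 and 6) for 6 clock genes and 4 glucocorticoid targets, with 1 point per library, 3 per day, and a bar at the mean; every axis starts at 0 and has its own scale. Arntl and Npas2 stand high at day 2 alone, Ciart, Bhlhe41 and Dbp stand low at day 2, and Fkbp5 and Zbtb16 have their highest means at day 6.

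Among 21 clock genes, Arntl rose and Ciart and Bhlhe41 fell at day 2, where 0.118% of all genes were called higher and 0.203% lower. By edgeR Ciart lost its call (adjusted p = 0.0572), and the other 2 kept theirs. Arntl, the core activator of the clock (chr7:113207465-113314126, plus strand), stood at 19.2, 24.1 and 18.9 CPM at day 0 and 54.9, 54.7 and 60.2 CPM at day 2, a difference of 1.41 (SE 0.16, adjusted p = 0.00424). Ciart, a repressor of that activator, was at 6.08, 4.92 and 8.48 CPM at day 0 and 1.63, 1.81 and 2.33 CPM at day 2, a difference of -1.34 (SE 0.24, adjusted p = 0.0428). Bhlhe41, which competes for E-boxes, was at 6.78, 7.10 and 9.24 CPM at day 0 and 2.51, 1.73 and 2.44 CPM at day 2, a difference of -1.43 (SE 0.24, adjusted p = 0.0342). In all 3 the days were clearly apart, with Ciart and Bhlhe41 at few CPM throughout. Bhlhe41 shares 1280 exon bases, 19.0% of its own, with the antisense gene Gm43909.

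Around them other clock genes stood apart between the days without passing. Npas2, the partner of ARNTL, stood at 13.2, 18.4 and 16.5 CPM at day 0 and 33.5, 36.2 and 38.5 CPM at day 2, a difference of 1.13 (SE 0.21, adjusted p = 0.0518). Cry1, a late repressor, was at 14.7, 15.3 and 17.1 CPM at day 0 and 31.1, 23.5 and 30.2 CPM at day 2, a difference of 0.80 (SE 0.15, adjusted p = 0.0585). Dbp, an output gene with E-boxes, was at 73.2, 38.5 and 63.2 CPM at day 0 and 17.6, 9.89 and 13.9 CPM at day 2, a difference of -1.99 (SE 0.36, adjusted p = 0.0509). These 3 had no overlap between the days and missed the threshold by little. Over the 21 clock genes, 5 were separated upward and 9 downward, where 18.7% and 12% of all genes were. Tef and Per3 differed by -1.13 and -0.91 (adjusted p = 0.107 and 0.114), and Nfil3, which opposes Dbp and Tef, by 1.23 (0.214). Clock, Nr1d1, Nr1d2, Per2 and Bhlhe40 differed by 0.41, -0.10, -0.38, 0.18 and -0.10, none past the threshold. The fit of the 6 libraries called 10 clock genes, 5 in each direction. The count of 3 was 1 without any single library of day 0 or day 2 or without day 4 replicate 3, and 9 and 5 without day 6 replicates 2 and 3.

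Among 17 clock genes with a promoter window, 5 held CACGTG (29.41%, against 11.24% of all genes). The share was 31.25% among 16 glucocorticoid targets, 18.75% among 16 sterol enzymes, 7.14% among 14 fatty acid genes and 0 among 4 sterol uptake genes. Ciart held 3 copies of CACGTG just upstream of its start, at chr3:95882252-95882388 on the minus strand. A RORE-type sequence, searched on both strands, which ROR and REV-ERB receptors are known to bind, was found in the window of Arntl and of no other clock gene, against 0.17% of all genes. It lies 28 to 37 bases after the later of 2 starts that RefSeq gives, which is itself downstream of the gene start given above, at chr7:113207530-113207555 on the plus strand with its flanks. Both are shown because these genes were called in opposite directions, with capitals for CACGTG and CCAAT in Ciart and for the RORE-type sequence in Arntl.
Ciart: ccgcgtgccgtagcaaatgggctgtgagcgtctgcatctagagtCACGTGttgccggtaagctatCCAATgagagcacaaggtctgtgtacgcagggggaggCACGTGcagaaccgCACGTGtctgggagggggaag
Arntl: aaggcagaAAGTAGGTCAgggacgga

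The hour at which the mice were killed is not given for either day, so a difference in the clock and a difference in the hour of harvest cannot be told apart.

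A further group of higher genes encodes receptors, pumps and signalling proteins. Ffar4, a receptor for long-chain fatty acids (chr19:38097071-38114263, plus strand), stood at 20.2, 8.60 and 7.74 CPM at day 0 and 59.8, 55.7 and 44.4 CPM at day 2, a difference of 2.15 (SE 0.31, adjusted p = 0.0148). Day 0 replicate 1 was the highest of its day and still well under the lowest day 2 library. Abcb1a, the efflux pump that expels drugs and toxins from the epithelium, was at 298, 257 and 346 CPM at day 0 and 678, 1089.8 and 736 CPM at day 2, a difference of 1.45 (SE 0.22, adjusted p = 0.0189), with day 2 replicate 2 highest. Adra2a, an adrenergic receptor, was at 45.7, 36.5 and 49.1 CPM at day 0 and 103, 134 and 117 CPM at day 2, a difference of 1.41 (SE 0.23, adjusted p = 0.0315). The kelch-domain gene Kbtbd11 was at 63.3, 72.1 and 65.5 CPM at day 0 and 130.3, 156 and 148 CPM at day 2, a difference of 1.10 (SE 0.12, adjusted p = 0.00333).

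Tnfrsf12a, the receptor of the cytokine TWEAK, was at 12.6, 11.8 and 9.55 CPM at day 0 and 28.5, 25.8 and 19.7 CPM at day 2, a difference of 1.05 (SE 0.17, adjusted p = 0.0231). The remaining higher genes with at least 5 CPM were Ttc39b (1.01), Arap1, a GTPase-activating protein (0.81), Als2cl (0.79) and Nedd9, a scaffold of cell adhesion (0.71), with adjusted p of 0.0418, 0.0156, 0.0309 and 0.0342. At lower levels, and named after their values were seen, the kinesin Kif27 rose from 1.21, 1.15 and 0.892 CPM to 4.45, 6.68 and 5.19 CPM, and the nucleotide receptor P2ry4 from 1.29, 1.49 and 1.44 to 3.44, 4.40 and 4.21 CPM. Agbl2 and Adamts18 rose too (1.54 and 1.03, adjusted p = 0.0156 and 0.0202).

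Among the xenobiotic genes listed with Abcb1a, 1 of 25 tested passed (0.118% of all genes were called higher), and the list median was 0.28. Cyp2c55, a cytochrome P450 of the colon, stood at 1526, 557 and 1189 CPM at day 0 and 2646, 3555 and 2108 CPM at day 2, with no overlap and a difference of 1.43 (SE 0.43, adjusted p = 0.204). Ugt1a1, a glucuronosyltransferase, was at 18.9, 11.4 and 27.1 CPM at day 0 and 42.0, 75.3 and 31.9 CPM at day 2, a difference of 1.32 (SE 0.48, adjusted p = 0.261); as 1 of a cluster of genes with shared exons, its counts are uncertain. Of 17 genes of salt and water transport none passed by limma (1 higher at an unadjusted p under 0.05, 0 by edgeR and DESeq2), and the sodium/proton exchanger Slc9a3 was at 139.9, 167 and 296 CPM at day 0 and 315, 360.5 and 479 CPM at day 2 (adjusted p = 0.26).

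Rdh11 and Rdh9, of the retinol dehydrogenase family, fell. Rdh11 was at 45.5, 38.8 and 38.4 CPM at day 0 and 23.3, 20.7 and 21.0 CPM at day 2, a difference of -0.88 (SE 0.15, adjusted p = 0.0315). Rdh9 was at 38.0, 23.8 and 29.3 CPM at day 0 and 11.4, 6.76 and 10.3 CPM at day 2, a difference of -1.58 (SE 0.28, adjusted p = 0.0418), but 2302 of its exon bases (64.1%) are shared with Rdh16f1 on the same strand, so its reads cannot be assigned to it with certainty. Of 17 tested retinoid genes, Rdh9 was the 1 past the threshold (0.203% of all genes were called lower), and Rdh11 was outside that list. Aldh1a3, which makes retinoic acid, was at 6.91, 6.57 and 7.74 CPM at day 0 and 10.7, 15.4 and 11.9 CPM at day 2 (adjusted p = 0.166).

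None of 32 genes of the cell cycle and DNA replication passed by limma in the fit of 12 libraries, with 19 lower at an unadjusted p under 0.05, and none passed by edgeR. All 32 had a negative difference, 30 of them without overlap between the days (12% of all genes were separated in that direction), and the median was -0.86. DESeq2 called 11 of them lower, and the fit of the 6 libraries 21. The count in the 12-library fit was 24 without day 6 replicate 2 and 2 without day 6 replicate 3. The mean of log2(CPM + 1) over the list was 5.05, 4.95 and 4.98 at day 0 and 4.13, 4.17 and 4.18 at day 2. In the day 6 libraries it was 5.42, 3.91 and 5.33 in the day 6 libraries, with replicate 2 lowest.

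Mcm4, a subunit of the replicative helicase, was at 28.4, 28.6 and 31.6 CPM at day 0 and 16.1, 15.5 and 16.0 CPM at day 2, a difference of -0.85 (SE 0.16, adjusted p = 0.0591), and Mcm3, another, at 37.4, 34.5 and 38.8 CPM at day 0 and 15.5, 18.0 and 16.8 CPM at day 2, a difference of -1.09 (SE 0.26, adjusted p = 0.114). Ccne1, the cyclin of entry into S phase, was at 8.12, 6.94 and 7.98 CPM at day 0 and 3.09, 2.58 and 2.72 CPM at day 2, a difference of -1.19 (SE 0.23, adjusted p = 0.0623). Within each day these libraries lay close together, and in the fit of the 6 libraries the adjusted p was 0.018, 0.0118 and 0.0143. Mcm5 and E2f1 differed by -1.38 and -0.85 (adjusted p = 0.122 and 0.122).

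Genes of the crypt base and of Wnt signalling had a median of -0.31 over 23 tested, with 17 negative and 6 positive differences. None passed by limma in the fit of 12 libraries (6 lower and 2 higher at an unadjusted p under 0.05, 0 by edgeR, 3 lower by DESeq2, 5 lower and 1 higher in the fit of the 6 libraries). Lgr5, the marker of crypt stem cells, was at 5.94, 6.88 and 8.69 CPM at day 0 and 2.59, 3.19 and 1.26 CPM at day 2, a difference of -1.32 (SE 0.32, adjusted p = 0.122). Ascl2, the factor that sets stem cell identity, was at 4.22, 5.11 and 3.67 CPM at day 0 and 1.84, 0.852 and 0.449 CPM at day 2, a difference of -1.43 (SE 0.30, adjusted p = 0.0949). Axin2, a feedback target of Wnt, was at 28.9, 45.5 and 38.8 CPM at day 0 and 18.1, 18.0 and 13.5 CPM at day 2, a difference of -1.13 (SE 0.24, adjusted p = 0.0904), and Hopx at 41.1, 31.7 and 34.7 CPM at day 0 and 19.0, 15.3 and 11.5 CPM at day 2, a difference of -1.20 (SE 0.27, adjusted p = 0.111). These 4 had no overlap between the days and an adjusted p of 0.043, 0.0366, 0.0338 and 0.0312 in the fit of the 6 libraries. Over the 23 tested, 11 were separated downward and 2 upward, where 12% and 18.7% of all genes were. Lrig1, Ephb2 and Bmi1, other genes of the list chosen after their values were seen, differed by -0.22, 0.07 and 0.01.

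Of 16 hedgehog genes, Gli1 fell (0.203% of all genes were called lower). The list lay on both sides of 0, with 8 negative and 8 positive differences and a median of 0.03. It had 4 genes separated downward and 2 upward, where 12% and 18.7% of all genes were. Gli1, the transcription factor that hedgehog signals induce in the stroma (chr10:127329882-127341974, minus strand), was at 25.1, 20.5 and 21.7 CPM at day 0 and 7.95, 9.48 and 5.14 CPM at day 2, a difference of -1.49 (SE 0.22, adjusted p = 0.0156). The 3 day 2 libraries were all under the lowest of day 0. Other targets were also lower in value without passing, Hhip, a decoy for the ligand, at -1.01 (adjusted p = 0.122) and Ptch1, the receptor, at -0.55 (0.371). The epithelial ligand Ihh was at 112, 86.2 and 106 CPM at day 0 and 116, 102 and 105 CPM at day 2, with overlap (adjusted p = 0.908). Foxl1, a factor of the stromal cells around the crypt, differed by -0.96 (adjusted p = 0.152). Wnt5a and Nrg1, signals of the stroma, were at 11.8, 14.9 and 12.6 CPM at day 0 and 22.5, 22.9 and 28.9 CPM at day 2 and at 3.20, 5.05 and 4.57 CPM at day 0 and 12.8, 9.23 and 12.3 CPM at day 2, with adjusted p of 0.151 and 0.227, and 0.0342 and 0.0296 in the fit of the 6 libraries.

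**Figure D4:**
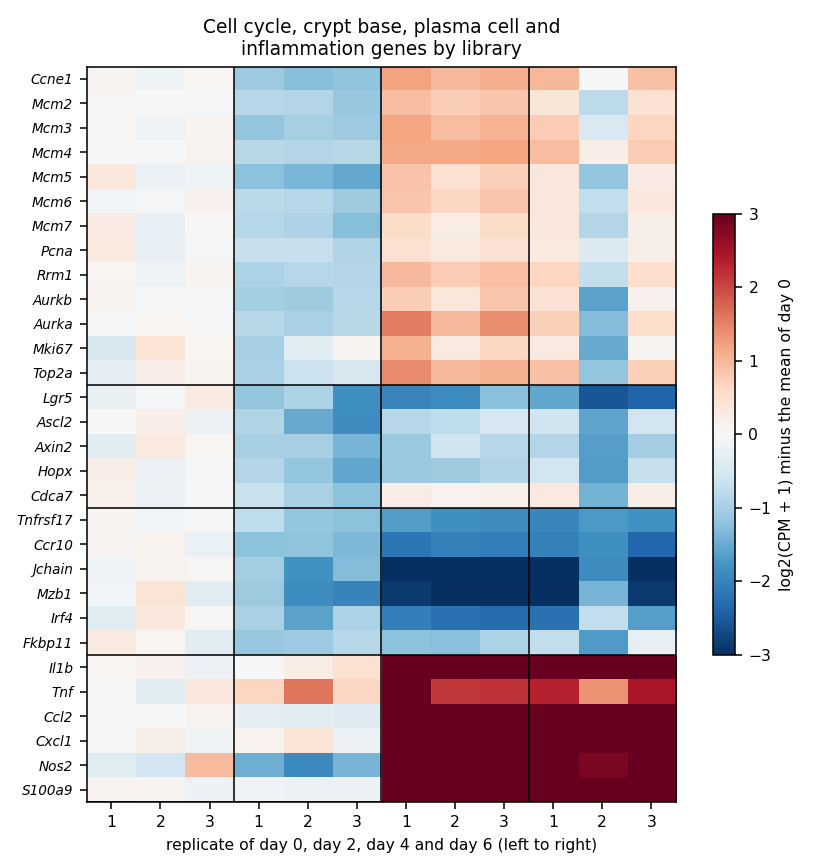
Colour gives log2(CPM + 1) minus the mean of day 0 for each gene (rows) in each of the 12 libraries (columns, 3 per day), from blue (lower) to red (higher) and clipped at -3 and 3. The replication and crypt base genes shown are lower in the 3 day 2 libraries and differ among the day 6 libraries. The plasma cell genes shown are lower from day 2 on, and most of the inflammation genes change colour at day 4. The whole list of crypt base and Wnt genes had 17 negative and 6 positive differences at day 2.

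Plasma cell genes were lower in value at day 2, and 1 of 11 passed (0.203% of all genes were called lower), with a list median of -1.03. Tnfrsf17, the BCMA receptor that keeps plasma cells alive, was at 3.28, 2.83 and 3.10 CPM at day 0 and 1.38, 0.824 and 0.730 CPM at day 2, a difference of -1.05 (SE 0.16, adjusted p = 0.0196). Jchain, which links secreted IgA, was at 874, 1025 and 971 CPM at day 0 and 466, 273 and 385 CPM at day 2, a difference of -1.38 (SE 0.45, adjusted p = 0.221). Mzb1, a chaperone of antibody assembly, was at 18.1, 25.7 and 15.1 CPM at day 0 and 8.47, 4.51 and 3.99 CPM at day 2, a difference of -1.66 (SE 0.45, adjusted p = 0.164). Neither overlapped between days, and both passed in the fit of the 6 libraries (adjusted p = 0.0285 and 0.0335), which called 5 of the 11. Xbp1 and Sdc1, which epithelial cells make as well, differed by -0.25 and 0.10. The count of 1 was 7 without day 6 replicate 2 and 0 without any single library of day 0, without day 2 replicate 2 or without day 2 replicate 3.

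Ccr10, the receptor that guides IgA plasma cells to the colon, fell, at 9.63, 9.93 and 7.82 CPM at day 0 and 3.27, 3.38 and 2.98 CPM at day 2, a difference of -1.26 (SE 0.17, adjusted p = 0.00977). Of 261 immunoglobulin genes listed, 146 were tested and 4 passed, all lower: Igkv4-80, Igkv8-24, Igkv3-10 and Igkv9-120, segments of the kappa chain (-2.71, -2.99, -2.08 and -2.02). Over all genes 0.203% were called lower. None of the 4 passed by edgeR, which called 0.0 of the 146, while the fit of the 6 libraries called 15 and DESeq2 19 lower. Their reads may be shared with near-identical segments. The median of the 146 was -0.8, 121 had a negative difference, and 42 were separated downward and 3 upward (12% and 18.7% of all genes). Their summed level was 7478, 10215 and 10031 CPM at day 0 and 4303, 2391 and 3442 CPM at day 2. Igha, the constant region of IgA, was at 3275, 5034 and 4935 CPM at day 0 and 2134, 1165 and 1536 CPM at day 2, a difference of -1.47 (SE 0.52, adjusted p = 0.253). Igkc was at 1661, 1569.8 and 1763 CPM at day 0 and 538, 301 and 501 CPM at day 2, a difference of -1.94 (SE 0.39, adjusted p = 0.0781). B cell markers did not pass (0 of 11 by limma with 4 lower at an unadjusted p under 0.05, 0 by edgeR, 2 lower by DESeq2, 1 lower in the fit of the 6 libraries), and Cd79a was at 5.27, 7.69 and 6.85 CPM at day 0 and 3.29, 2.50 and 2.84 CPM at day 2 (adjusted p = 0.129).

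Outside these groups and at low levels, Map4k1, a kinase of blood cells, and Gramd2 fell, at -1.06 (SE 0.19, adjusted p = 0.0418) and -1.48 (SE 0.21, adjusted p = 0.0148). Cacna1s, a calcium channel of skeletal muscle, was at 3.07, 4.92 and 2.26 CPM at day 0 and 1.06, 0.605 and 0.281 CPM at day 2, a difference of -1.40 (SE 0.25, adjusted p = 0.0418). It was highest in day 0 replicate 2, the library with the most skeletal muscle RNA, and its part in this was not tested. These 3 were named after their values were seen.

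Genes of inflammation did not pass at day 2, save Il18 (higher) and the neutrophil marker Cd177 (lower) in the fit of the 6 libraries. In the fit of 12 libraries, none of 25 tested cytokines and chemokines passed by limma (2 higher at an unadjusted p under 0.05, 0 by edgeR and DESeq2), none of 34 interferon response genes (1 higher at such a p, 0 by edgeR and DESeq2), and none of 11 neutrophil markers (1 lower at such a p, 0 by edgeR, 1 lower by DESeq2). Their medians were 0.03, -0.23 and -0.06. Tnf was at 2.04, 1.37 and 2.73 CPM at day 0 and 3.67, 8.19 and 3.62 CPM at day 2 (adjusted p = 0.32), and Ccl2, a chemokine for monocytes, at 1.37, 1.43 and 1.65 CPM at day 0 and 1.03, 0.989 and 0.899 CPM at day 2 (adjusted p = 0.443). Il18, a cytokine that epithelial cells hold ready, was at 30.4, 18.5 and 26.3 CPM at day 0 and 54.3, 41.7 and 60.3 CPM at day 2, with no overlap and a difference of 1.04 (SE 0.32, adjusted p = 0.21). Il22 had 0 reads in all 6 libraries, which allows up to 0.0281 CPM over day 0 and 0.027 CPM over day 2. S100a9, a main protein of neutrophils, had 2 reads in the 3 day 2 libraries together. At day 4, 22, 34 and 10 genes of these 3 lists were called higher against the same day 0 libraries, where 21.2% of all genes were.

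Antimicrobial and mucosal defence genes had a median of -0.48 over 20 tested, none past the threshold by limma (7 were lower at p under 0.05 before adjustment, 0 by edgeR, 3 lower by DESeq2). Ang4, a ribonuclease of the crypt, was at 596, 2234 and 1638 CPM at day 0 and 504, 204 and 278 CPM at day 2, a difference of -2.08 (SE 0.45, adjusted p = 0.107). Itln1, an intelectin of goblet cells, spread over 10.6 to 103 CPM within day 0 alone, and its day 0 replicate 1 lay inside the day 2 range. Spink4, another goblet cell product, was at 724, 801 and 612 CPM at day 0 and 288, 177 and 262 CPM at day 2. Its difference was -1.57 (SE 0.36, adjusted p = 0.114), and its adjusted p in the fit of the 6 libraries was 0.0201. A list of 14 goblet cell genes had a median of 0, with 8 negative and 6 positive differences. Of these genes, 2 were separated upward and 3 downward, where 18.7% and 12% of all genes were. By limma in the fit of 12 libraries none passed, and before adjustment 1 gene upward and 2 downward had p under 0.05. EdgeR called 0, DESeq2 1 lower and the fit of the 6 libraries 1 lower.

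Immediate early genes, which respond within minutes to growth signals, stress or handling of tissue, had 20 of 21 differences above 0 and a median of 0.51, with none past the threshold by limma (11 higher at an unadjusted p under 0.05, 0 by edgeR, 3 higher by DESeq2). Egr1 was at 15.3, 18.9 and 31.8 CPM at day 0 and 56.3, 82.7 and 170.1 CPM at day 2, a difference of 2.09 (SE 0.50, adjusted p = 0.122), and Nr4a1 at 19.5, 25.4 and 15.1 CPM at day 0 and 39.8, 102 and 60.2 CPM at day 2, a difference of 1.63 (SE 0.48, adjusted p = 0.193). The day 2 libraries of these genes were uneven, Egr1 being highest in replicate 3 and Nr4a1 in replicate 2. Heat shock genes were higher in the fit of the 6 libraries in 4 of 15 cases (Hspa1a, Hspa1b, Hsph1 and Dnaja1) and in 0 by limma over 12 libraries (4 higher at an unadjusted p under 0.05, 0 by edgeR, 2 by DESeq2). Hspa1b was at 14.5, 24.0 and 18.2 CPM at day 0 and 40.3, 54.0 and 42.1 CPM at day 2, a difference of 1.24 (SE 0.28, adjusted p = 0.113).

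**Figure D5:**
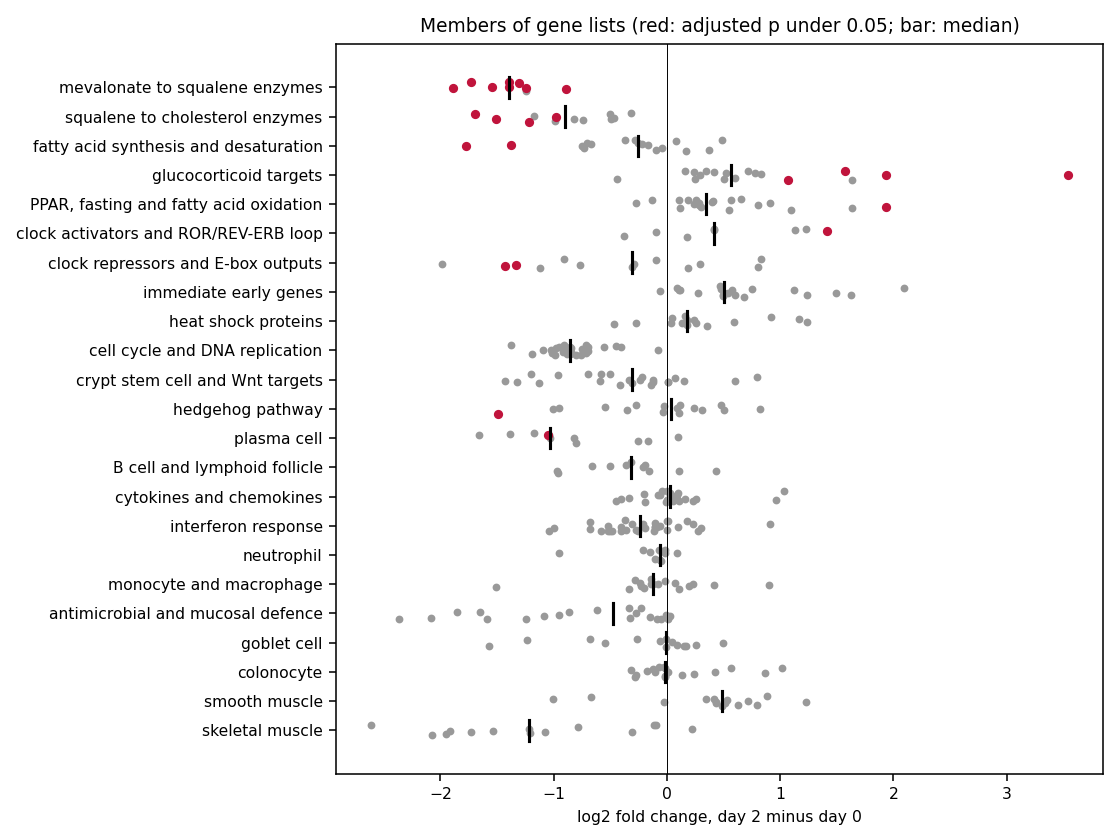
Each point is the log2 fold change, day 2 minus day 0, of 1 tested member of a gene list (rows), red where the adjusted p is under 0.05, with a black bar at the list's median. The mevalonate list lies wholly below 0 with 8 of 9 members red, while the cell cycle list lies below 0 with none red.

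The genes of day 2 went separate ways later. Days 2, 4 and 6 share the day 0 libraries, so the later levels are given side by side and not as support. Of the 44 named genes, the lower ones were below the day 0 range in all 3 libraries of day 4 in 24 cases and not apart from it in 2, and at day 6 they were below in 22, above in 1 (Map4k1) and not apart in 3. The higher ones were above the day 0 range in 7 cases, below it in 9 and not apart in 2 at day 4. At day 6 they were above in 7, below in 5 and not apart in 6. The shares of all genes apart from the day 0 range at days 4 and 6 were not counted. The 44 were also picked with the same day 0 libraries, so these counts are a description and not a test of lasting change.

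The summed level of the sterol enzymes stood between those of day 0 and day 2 at day 4, at 2265, 2146 and 2375 CPM, and at 1814, 1174 and 2133 CPM at day 6. Of the 21 enzymes, 14 were called lower than day 0 at day 4 and 1 higher, Lbr at 0.60 (adjusted p = 0.027). Of all genes, 12% were called lower at day 4 and 21.2% higher. Hmgcs1 had a mean of 319 ± 28.6 CPM at day 4 and 211 ± 56.9 CPM at day 6, beside 212 ± 49.5 CPM at day 2 (SD, n = 3). Pmvk, at 20.9 CPM at day 2, was at 32.2 ± 2.40 CPM at day 4 and 35.5 ± 4.24 CPM at day 6 against 39.6 ± 1.54 CPM at day 0. Its day 4 libraries were all below the day 0 range, and its day 6 libraries were not apart from it. Abcb1a, higher at day 2, was at 111 ± 16.9 CPM at day 4 and 87.5 ± 17.4 CPM at day 6, both under its day 0 mean of 301 CPM. Arntl was back at 25.0 ± 3.04 and 25.9 ± 4.74 CPM. Fkbp5 was at 138 ± 8.53 CPM at day 4 and 363 ± 34.2 CPM at day 6, above its day 2 mean of 228 CPM. The cell cycle list, with a median of -0.86 at day 2, had 0.81 at day 4 and -0.09 at day 6 against the same day 0. Igha, at 1612 CPM at day 2, was at 429 CPM at day 4.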

How the data were processed

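RNA of mid-colon was sequenced in 12 libraries, 3 per day. The authors deposited 1 table of CPM for 25904 gene symbols, made with HISAT2 2.2.1, featureCounts 2.0.1 and mm10 per the submitters' processing notes. How strand was set, and which gene models were counted, is not given in the sources used here. Divided by the value of 1 read, 100% of the deposited values lay within 0.1 of an integer, which gave 31935956 to 39658220 recovered reads per library of days 0 and 2, and no column was left unmapped. Floors for genes without reads are 3 reads over a day's 3 libraries and cover counting error only.

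From these values, log2(CPM + 1) was tested with limma 3.58.1 in R 4.3.3 (means of the 4 days, trend and robust moderation, Benjamini-Hochberg adjustment over 15246 genes, threshold 0.05). Log2 fold changes on this scale understate the change of low genes. Recovered reads were tested with edgeR 4.0.16 (quasi-likelihood) and DESeq2 1.42.0 as alternatives. A separated gene is one whose 3 libraries of each day do not overlap. Per-gene coordinates and shared exon bases are from GENCODE M21 on GRCm38 (mm10), which names 24732 of the symbols, and promoter windows are from RefSeq. Among called genes not described above for it, Fdps, Kbtbd11, Cacna1s, Hmgcs1, Als2cl and Abcb1a share 26.7%, 24.8%, 20.0%, 12.1%, 11.4% and 10.1% of their exon bases with predicted genes.

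Named genes are those past the threshold with a mean of at least 5 CPM and separated days (34 genes), the 5 members of a list with the smallest p and all members past the threshold, and members of the sterol, fatty acid, clock and glucocorticoid lists. A few list members enter the counts and are not reported here by name. Jchain, Xbp1, Sdc1, Igha, Igkc, Ihh, the genes without reads and those of the heat map were chosen after their values were seen. The members and lists were chosen with earlier results of these data known. The labels do not say whether replicate numbers pair the libraries, and the numbers were not used in the main test.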

Additional observations from a re-analysis of the deposited data

Results flagged for a closer look

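For 27 of the 44 called genes with a name the change against day 0 differed between day 2 and day 4, by the direct contrast of day 4 with day 2 in the same limma fit (adjusted p of at most 0.0486). Values are log2 differences, day 4 minus day 2, and the day 0 libraries cancel in them. The 44 were picked by their day 2 libraries, which this contrast uses again. A move back toward day 0 is therefore favoured by the choice of genes. The share of all genes past this contrast was not counted. Of the genes higher at day 2, 13 were lower at day 4 than at day 2, namely Abcb1a (-2.87), Sgk1 (-2.44), Agbl2 (-2.34), Adra2a (-2.34), Pdk4 (-2.04), Kbtbd11 (-2.01), Kif27 (-1.89), P2ry4 (-1.82), Adamts18 (-1.60), Nedd9 (-1.43), Arntl (-1.15), Fkbp5 (-0.71) and Arap1 (-0.62). Of the genes lower at day 2, 11 were higher at day 4, namely Rdh9 (1.88), Map4k1 (1.10), Ciart (0.86), Gramd2 (0.63) and the sterol enzymes Lss (0.80), Acat2 (0.65), Hmgcs1 (0.61), Pmvk (0.60), Fdft1 (0.58), Mvd (0.56) and Sqle (0.55). Ccr10 (-0.82), Tnfrsf17 (-0.75) and Tnfrsf12a (0.61) moved further in their day 2 direction. The day 4 libraries are of a later day of harvest as well as of longer exposure, and these cannot be told apart. Groups of 3 libraries were not tested for single deviating samples.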

How the results depend on the processing

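All alternatives were planned, and no named gene changed direction in any of them. The counts of sterol enzymes, glucocorticoid targets and genes called in all stayed within 1.5 times of 12, 4, 18 and 31 under both pseudocounts, no filter, other scalings, plain moderation and edgeR, save 17 lower genes with a mean of at least 5 CPM. The fit of the 6 libraries gave 171 higher and 211 lower genes, 7 glucocorticoid targets, 10 clock, 21 cell cycle and 5 plasma cell genes. DESeq2 gave 189 and 357 genes, and 9 clock, 11 cell cycle and 4 plasma cell genes. Of 3 clock genes, 1 passed with no filter and 1 with a mean of at least 5 CPM, and 5 with plain moderation, which also called 1 cell cycle gene. The plasma cell gene was lost with a mean of at least 5 CPM, which removes it from the genes tested, and with edgeR (0 in each). Without 1 library at a time, higher genes ran from 4 to 206, lower genes from 9 to 351, sterol enzymes from 4 to 18, glucocorticoid targets from 1 to 6, clock genes from 1 to 9, cell cycle genes from 0 to 24 and plasma cell genes from 0 to 7. Each highest value came without day 6 replicate 2, the lowest of higher genes without day 0 or day 2 replicate 2, of sterol enzymes without day 0 replicate 2, and of lower genes without day 2 replicate 2. The causes were not tested. The 44 named genes kept their call in 44 cases with a pseudocount of 0.5, plain moderation, the 6 libraries and DESeq2, and in 40 with a pseudocount of 5, 38 under median-of-ratios and 36 under quantile scaling, 35 with no filter and 31 with edgeR, and 29 of the 34 with a mean of at least 5 CPM. Without 1 library of day 0 or day 2, 10 to 21 kept it, the fewest without day 0 replicate 2 (10) and day 2 replicate 2 (11), and without 1 of days 4 and 6, 29 to 44. With the replicate number as a block, 23 higher and 37 lower genes, 12 sterol enzymes, 3 glucocorticoid targets, 3 clock genes, 1 cell cycle gene and 1 plasma cell gene passed, and 41 of the 44 kept their call. Same-numbered libraries of the 2 days deviated from their day means with correlations of 0.395, 0.104 and -0.129. The labels do not say whether the numbers pair the libraries, and 3 such correlations cannot decide it. With 3 libraries per day, a missed threshold does not show that a gene was unchanged.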

Other observations

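All 17 tested genes of enteric neurons and glia had a positive difference, with a median of 0.42, and 7 were separated upward (18.7% of all genes were). None passed by limma in the fit of 12 libraries or by edgeR (1 higher at an unadjusted p under 0.05, 0 by DESeq2, Ret in the fit of the 6 libraries), and Ret, the receptor that guides enteric neurons, stood at 18.8, 19.4 and 16.5 CPM at day 0 and 30.3, 31.1 and 30.1 CPM at day 2 (adjusted p = 0.261). Smooth muscle genes had a median of 0.48 over 15, with 10 separated upward and 2 downward (18.7% and 12% of all genes were). None was called by limma in the fit of 12 libraries or by edgeR (before adjustment 2 were higher and 2 lower at p under 0.05, 1 lower by DESeq2, Pln and Myocd higher in the fit of the 6 libraries). Pln, which regulates the calcium pump of muscle, was at 18.8, 18.4 and 22.0 CPM at day 0 and 43.2, 30.1 and 39.6 CPM at day 2 (adjusted p = 0.211). Nuclear subunits of the respiratory chain lay below 0 in 25 of 26 cases, by little (median -0.28), with none past the threshold by limma, edgeR or DESeq2 and 0 at an unadjusted p under 0.05. Lpl, lipoprotein lipase, was at 12.6, 13.8 and 13.9 CPM at day 0 and 22.7, 28.1 and 24.0 CPM at day 2, a difference of 0.84 (SE 0.20, adjusted p = 0.118), and its inhibitor Angptl4 also had higher values. Ly6c2, a marker of inflammatory monocytes, was at 13.9, 25.8 and 17.3 CPM at day 0 and 9.68, 3.52 and 5.50 CPM at day 2. Its difference was -1.51 (SE 0.33, adjusted p = 0.107). Over 17 tested genes of monocytes and macrophages the median was -0.12, with 11 negative and 6 positive differences. Of these genes, 1 was separated upward and 1 downward, where 18.7% and 12% of all genes were. By limma in the fit of 12 libraries none passed, and before adjustment 1 gene in each direction had p under 0.05. EdgeR called 0 and DESeq2 1 lower.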
